A study of Homo sapiens with 6 samples.

Results

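The 38 genes described here encode aminoacyl-tRNA synthetases and the non-catalytic scaffold of the multisynthetase complex. They were taken by gene symbol from a table of 60649 genes. No measured value entered that rule, but the family was chosen with earlier results of these data known. Of these, 19 encode cytosolic enzymes or their subunits, 16 encode mitochondrial enzymes and 3 encode scaffold proteins. Among the cytosolic set, 7 enzymes sit in the multisynthetase complex and 12 work outside it. GARS1 and KARS1 were counted as cytosolic, although each gene also supplies the mitochondrial enzyme. All 38 genes had enough counts to be tested.

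The samples are RNA-seq libraries of the human cell line 786-O, which was derived from a clear cell carcinoma of the kidney. LINC02068, a long non-coding RNA, was knocked down with either of 2 short hairpin RNAs, shRNA1 and shRNA2, and the controls carried shControl (genotype labelled WT). There were 3 groups of 2 libraries, and no further treatment was applied. The protocol text attached to every sample also mentions kidney tumour and normal kidney tissue, but the titles and cell line labels name 786-O for all 6 libraries, and they were taken as such. Whether each hairpin line is a pool or a clone is not given in the sources used here. The labels also do not say that the libraries come from separate cultures, so p-values measure the spread between these libraries, which may be technical.

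Aminoacyl-tRNA synthetases attach each amino acid to its matching tRNA, the charging step that precedes protein synthesis. Human cells hold a cytosolic set for nuclear-encoded messages and a mitochondrial set, encoded in the nucleus and imported, for messages of the mitochondrial genome. Several cytosolic enzymes are held together with AIMP1, AIMP2 and EEF1E1 in the multisynthetase complex. When an amino acid runs short, uncharged tRNA activates the kinase GCN2 (gene EIF2AK4), translation of the transcription factor ATF4 rises, and ATF4 is known to activate several cytosolic synthetase genes.

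Total counts per library ran from 15376448 to 37311846, so that 1 CPM (counts-per-million, over library sizes scaled by the TMM method) stood for 14.9 to 36.0 counts. LINC02068 itself was thinly covered, with 9 and 2 counts with shRNA1 and 17 and 10 with shRNA2, against 20 and 32 in shControl. Its log2 fold change for the mean of both hairpins was −1.46 ± 0.59 (SE; edgeR adjusted p = 0.0447), and it was called with neither hairpin alone (shRNA1 edgeR adjusted p = 0.069, shRNA2 0.148). That call was lost when shRNA1 replicate 2, either shRNA2 library or either shControl library was left out (log2 −1.50 to −1.02, edgeR adjusted p 0.0972 to 0.219), with DESeq2 (adjusted p = 0.107), against a fold of 1.2 (0.0698), with the length and GC trend removed (0.0516) and with a replicate block (0.0506). The first principal component of the tested genes (55.3% of the variance) set the 4 knockdown libraries apart from both shControl libraries, and the second (15.1%) set shRNA1 replicate 1 apart from the rest. All 7 kidney carcinoma markers were detected, and in the mean of both hairpins 4 were higher (PAX8, PAX2, VIM and NNMT), 2 lower (EPAS1 and CA12) and CA9 not called. PAX8, a renal lineage factor, had 315 to 335 CPM in the knockdown libraries and 306 and 307 CPM in shControl. EPAS1, which encodes HIF-2 alpha, had 280 to 283 CPM in the knockdown libraries and 541 and 559 CPM in shControl (log2 −0.97 ± 0.03, edgeR adjusted p = 3.59e-13). PTPRC and CD3E (leukocytes), CDH5 (endothelium) and DCN (fibroblasts) had 0 counts in every library. Of 5 fibroblast markers 2 were tested and both, LUM and PDGFRB, were lower, with a sum over the list of 6.69 to 7.31 CPM in the knockdown libraries and 11.6 to 13.0 CPM in shControl, while DCN and FAP were at 0. The part of these markers in the results was not tested. CD68, an endosomal protein of macrophages, had 36.9 to 43.9 CPM in the knockdown libraries and 35.8 and 39.6 CPM in shControl, and was not called. CD14, the other tested immune marker, was under 1 CPM in every library and called lower with shRNA1 (log2 −1.81, edgeR adjusted p = 0.0478) but not in the mean of both hairpins (edgeR adjusted p = 0.226). Of 5 endothelial markers 2 were tested, and neither was called in any comparison with shControl.

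Most cytosolic synthetase transcripts were lower in the knockdown libraries, and most mitochondrial ones were higher. For the mean of both hairpins against shControl, 11 of 19 cytosolic genes fell and 6 rose, whereas 10 of 16 mitochondrial genes rose and 1 fell. The mitochondrial count of rises came to 6 of 16 with library sizes taken as total counts, against a fold of 1.2, or without shControl replicate 1. Of the 3 scaffold genes, 1 rose and none fell. Over all 38 genes 17 rose and 12 fell. Calls are edgeR quasi-likelihood tests at an adjusted p under 0.05 over 16039 genes, of which 57.5% were called, 28.6% as higher and 28.9% as lower. The median log2 fold change was −0.54 for the cytosolic genes, 0.30 for the mitochondrial genes and 0.15 for the scaffold genes, beside −0.03 for all genes tested.

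Among the larger changes, the falls were all cytosolic, whereas the rises came from both sets of enzymes. A fall of over 1 log2 unit was called for 4 cytosolic and 0 mitochondrial genes (8.09% of all genes tested), and a rise of over 1 unit for 2 cytosolic and 4 mitochondrial genes (4.61%). In 12 genes all 4 knockdown libraries lay below both shControl libraries (34.2% of all genes tested), and in 17 genes all lay above (32.7%). The remaining 9 genes overlapped between the groups. The same 12 genes were called lower under each of 15 alternative settings and left-out libraries. Of the 17 called higher, 12 kept their call in all 15, and the exceptions were FARSB, FARS2, RARS2, SARS2 and WARS2. With library sizes taken as total counts the median of all genes moved to −0.18, and 12 of the 38 genes were called higher and 14 lower.

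**Figure D1:**
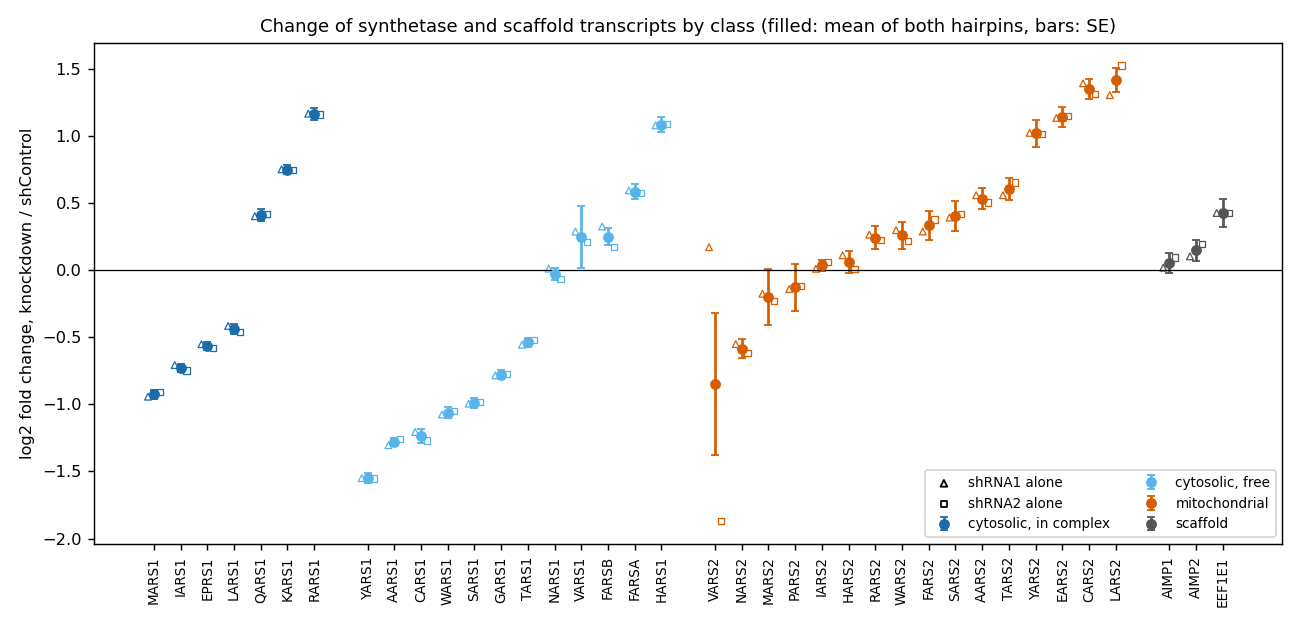
Log2 fold change of each of the 38 genes, by class, for the mean of both hairpins against shControl, with bars of 1 standard error, colours for the classes, and open triangles and squares for shRNA1 and shRNA2 alone. The cytosolic genes spread from −1.55 (YARS1) to 1.16 (RARS1), and the mitochondrial genes lie mostly above 0, up to 1.42 (LARS2).

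Summed over the class, the cytosolic genes had 3192 and 3153 CPM with shRNA1 and 3138 and 3191 CPM with shRNA2, against 4651 and 4752 CPM in shControl. The mitochondrial genes together had 558 and 568 CPM with shRNA1 and 567 and 562 CPM with shRNA2, against 443 and 433 CPM in shControl. The scaffold genes summed to 95.2 to 106 CPM in the knockdown libraries and to 87.3 and 93.0 CPM in shControl. The cytosolic and mitochondrial sums did not overlap between knockdown and control, and they moved in opposite directions. In bulk samples, less RNA per cell and fewer cells holding a transcript cannot be told apart.

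YARS1, the cytosolic tyrosyl-tRNA synthetase, fell the most among the 38. It had 125 and 135 CPM with shRNA1 and 127 and 133 CPM with shRNA2, against 374 and 388 CPM in shControl. The fall was −1.55 ± 0.04 on the log2 scale, to 0.341 times the shControl level (edgeR adjusted p = 5.22e-14), and the knockdown libraries lay within a narrow band far below both controls.

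AARS1, the cytosolic alanyl-tRNA synthetase, had 314 and 303 CPM with shRNA1 and 313 and 323 CPM with shRNA2, against 751 and 771 CPM in shControl (log2 −1.28 ± 0.03, edgeR adjusted p = 2.14e-14). CARS1, the cytosolic cysteinyl-tRNA synthetase, had 45.3 and 45.6 CPM with shRNA1 and 43.9 and 43.1 CPM with shRNA2, against 103 and 107 CPM in shControl (log2 −1.24 ± 0.05, edgeR adjusted p = 1.86e-11). WARS1, the cytosolic tryptophanyl-tRNA synthetase, had 130 and 131 CPM with shRNA1 and 137 and 129 CPM with shRNA2, against 265 and 285 CPM in shControl (log2 −1.06 ± 0.04, edgeR adjusted p = 4.63e-12). None of these genes had overlapping groups, and each fell to between 0.411 and 0.479 times its shControl level.

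SARS1, GARS1 and TARS1, the enzymes for serine, glycine and threonine, also fell. SARS1 had 166 to 171 CPM in the knockdown libraries and 321 and 348 CPM in shControl (log2 −0.99 ± 0.04). GARS1 had 297 to 318 CPM in the knockdown libraries and 520 and 531 CPM in shControl (log2 −0.78 ± 0.03). TARS1 had 228 to 236 CPM in the knockdown libraries and 343 and 334 CPM in shControl (log2 −0.54 ± 0.03). With these, 7 of the 12 cytosolic enzymes outside the complex were lower, each at an edgeR adjusted p of 6.05e-10 or less. Of all genes tested, 28.9% were called lower.

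Inside the multisynthetase complex the enzymes divided. MARS1, IARS1, EPRS1 and LARS1 fell, by 0.93, 0.73, 0.57 and 0.44 log2 units, and they charge tRNA with methionine, isoleucine, glutamate together with proline, and leucine. MARS1 had 151 and 150 CPM with shRNA1 and 153 and 156 CPM with shRNA2, against 286 and 294 CPM in shControl. EPRS1, in which 1 chain carries both activities, had 239 to 252 CPM in the knockdown libraries and 356 and 364 CPM in shControl. For MARS1 the annotation places exons of DDIT3 and ARHGAP9 over its own on the opposite strand, and 12 of the 38 genes share exon bases with a protein-coding gene on the opposite strand. The others are KARS1, HARS1, WARS1, YARS1, AARS2, CARS2, EARS2, HARS2, SARS2, AIMP1 and AIMP2. Whether the counting used strand is not stated in the labels or notes, so reads in the shared bases may have been counted for either gene.

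RARS1, KARS1 and QARS1, the arginyl, lysyl and glutaminyl enzymes of the same complex, rose. RARS1 had 132 and 135 CPM with shRNA1 and 137 and 128 CPM with shRNA2, against 59.8 and 59.0 CPM in shControl (log2 1.16 ± 0.05, edgeR adjusted p = 1.39e-11). KARS1 had 264 and 262 CPM with shRNA1 and 256 and 268 CPM with shRNA2, against 158 and 154 CPM in shControl (log2 0.75 ± 0.03, edgeR adjusted p = 6.41e-11). QARS1 had 246 and 256 CPM with shRNA1 and 243 and 264 CPM with shRNA2, against 198 and 182 CPM in shControl (log2 0.41 ± 0.04, edgeR adjusted p = 2.34e-06). All 7 complex-bound enzymes were therefore called, 3 as higher and 4 as lower, beside 28.6% higher and 28.9% lower of all genes tested. Their summed level was 1414 to 1437 CPM in the knockdown libraries and 1656 and 1659 CPM in shControl.

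Outside the complex, HARS1, FARSA and FARSB rose. HARS1, the cytosolic histidyl-tRNA synthetase, had 87.1 and 85.5 CPM with shRNA1 and 86.1 and 87.7 CPM with shRNA2, against 42.3 and 39.5 CPM in shControl (log2 1.08 ± 0.06, edgeR adjusted p = 2.32e-10). FARSA and FARSB encode the subunits of the cytosolic phenylalanyl enzyme. FARSA had 87.5 and 89.0 CPM with shRNA1 and 88.1 and 86.0 CPM with shRNA2, against 61.7 and 55.5 CPM in shControl (log2 0.58 ± 0.06, edgeR adjusted p = 3.1e-07). FARSB had 61.5 and 54.7 CPM with shRNA1 and 53.0 and 51.4 CPM with shRNA2, against 46.7 and 45.9 CPM in shControl (log2 0.25 ± 0.06, edgeR adjusted p = 0.0038). The FARSB call was lost without shControl replicate 2 (log2 0.23, edgeR adjusted p = 0.0506) and with library sizes taken as total counts (0.10, edgeR adjusted p = 0.228).

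NARS1 and VARS1, the asparaginyl and valyl enzymes, were the cytosolic genes not called. NARS1 had 132 to 147 CPM in the knockdown libraries and 138 and 145 CPM in shControl (log2 −0.03 ± 0.04, edgeR adjusted p = 0.611). VARS1 varied within groups, with 52.1 and 37.8 CPM with shRNA1, 40.8 and 44.2 CPM with shRNA2, and 29.7 and 43.3 CPM in shControl (log2 0.25 ± 0.23, edgeR adjusted p = 0.432). Without shControl replicate 2, the higher of the controls, VARS1 came to 0.55 (edgeR adjusted p = 0.0424). The class I and class II catalytic folds were both represented among cytosolic genes that moved each way. Of 9 genes of class I 6 fell and 2 rose, and of 9 genes of class II 4 fell and 4 rose. EPRS1, which holds both folds, was lower. Over all genes tested, 28.9% were called lower and 28.6% higher.

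The regions around the synthetase gene starts were searched for the motif TGATGNAA on both strands, the core of the C/EBP-ATF response element to which ATF4 dimers are known to bind. Windows ran from 250 bases before to 50 bases after each RefSeq start on GRCh38.p14. The motif was present in 1270 of 35116 windows of the whole table (3.62%), or in at least 1 window of 1217 of 27305 genes (4.46%). It was found for 7 of 16 cytosolic genes with a window (43.8%), 1 of 14 mitochondrial genes (7.14%) and 0 of 3 scaffold genes. LARS1, VARS1, YARS1, AARS2 and VARS2 had no entry.

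Among cytosolic genes with a window, 6 of the 9 that fell held the motif, and 0 of the 6 that rose did. The 6 were AARS1, CARS1, GARS1, TARS1, IARS1 and MARS1, while EPRS1, SARS1 and WARS1 fell without a match in any window. The search was not equal, since CARS1, GARS1, TARS1, SARS1 and WARS1 had 2 windows each and the 6 that rose had 1 each. In CARS1, GARS1 and TARS1 only 1 of the 2 windows held the motif. Which start these cells use was not examined. The other 2 genes with a match were NARS1, which was not called, and the mitochondrial gene YARS2, which rose. The matched stretches are shown because these counts rest on them. Each runs 5′ to 3′ on the strand of its gene, with the 8 motif bases in capitals.
AARS1 (chr16:70289676-70289703, minus strand): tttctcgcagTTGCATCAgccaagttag
CARS1 (chr11:3057408-3057435, minus strand): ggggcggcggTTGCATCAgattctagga
GARS1 (chr7:30594835-30594862, plus strand): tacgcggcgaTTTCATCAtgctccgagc
TARS1 (chr5:33440957-33440984, plus strand): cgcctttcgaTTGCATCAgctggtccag
IARS1 (chr9:92293693-92293720, minus strand): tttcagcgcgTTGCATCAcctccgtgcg
MARS1 (chr12:57488054-57488081, plus strand): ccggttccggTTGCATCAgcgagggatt
NARS1 (chr18:57621805-57621832, minus strand): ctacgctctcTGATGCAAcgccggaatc
YARS2 (chr12:32756077-32756104, minus strand): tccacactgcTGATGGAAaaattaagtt

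The form TTGCATCA, with the motif on the opposite strand, was shared by AARS1, CARS1, TARS1, IARS1 and MARS1. The first motif base lay at −33 in GARS1, −13 in IARS1, −4 in MARS1, −2 in CARS1 and 3 in TARS1, counting the start as base 1. In AARS1 it lay farther off, at −187, and in YARS2 at −197. The longer form TGATGCAAT was present for 1 cytosolic gene, TARS1, and for 0.236% of all windows. A match is a description of these letters and does not show that a factor bound there.

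The 250 bases before the start of AARS1, which fell, and of HARS1, which rose, are shown as a pair with and without the motif. HARS1 and HARS2 start head to head, and their windows shared 184 bases.
AARS1 (chr16:70289507-70289756, minus strand): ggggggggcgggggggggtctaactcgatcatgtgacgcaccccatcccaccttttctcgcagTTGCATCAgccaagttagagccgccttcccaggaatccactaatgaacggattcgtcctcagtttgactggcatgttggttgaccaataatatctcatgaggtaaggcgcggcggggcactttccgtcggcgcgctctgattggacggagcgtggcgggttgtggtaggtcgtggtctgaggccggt
HARS1 (chr5:140691371-140691620, minus strand): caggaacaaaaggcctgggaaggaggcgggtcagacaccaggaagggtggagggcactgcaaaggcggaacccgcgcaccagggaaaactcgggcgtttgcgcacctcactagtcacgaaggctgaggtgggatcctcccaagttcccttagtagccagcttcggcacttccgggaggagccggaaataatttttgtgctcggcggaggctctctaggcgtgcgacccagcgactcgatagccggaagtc

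**Figure D2:**
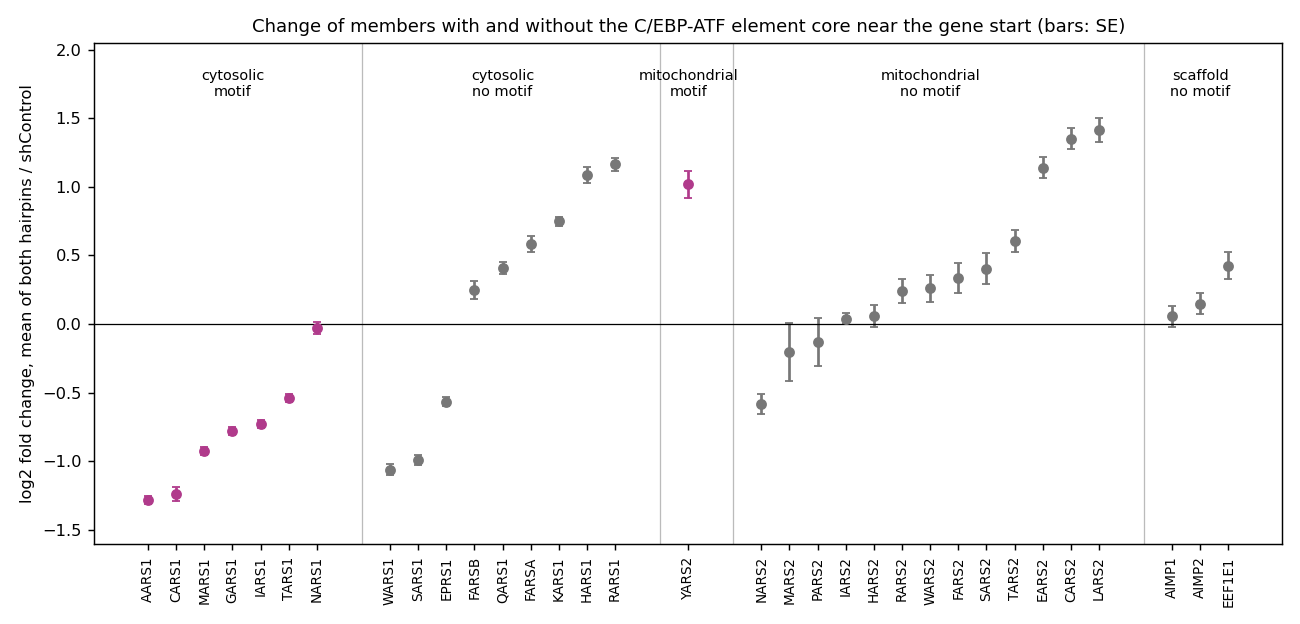
Log2 fold change of each gene with a promoter window, for the mean of both hairpins against shControl, split by class and by whether any of its windows held TGATGNAA. Among cytosolic genes 6 of the 7 with the motif were called lower, from −1.28 in AARS1 to −0.54 in TARS1, and NARS1 lay near 0. Of all genes tested, 28.9% were called lower.

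Of the non-catalytic scaffold genes, AIMP1 and AIMP2 were not called. AIMP1, which holds the arginyl and glutaminyl enzymes in the complex, had 34.1 and 38.9 CPM with shRNA1 and 38.9 and 38.1 CPM with shRNA2, against 36.9 and 35.3 CPM in shControl. AIMP2, the core scaffold on which the complex assembles, had 38.7 and 40.7 CPM with shRNA1 and 41.2 and 43.4 CPM with shRNA2, against 34.0 and 39.8 CPM in shControl. The groups overlapped for both genes (log2 0.06 ± 0.07 for AIMP1, edgeR adjusted p = 0.551, and 0.15 ± 0.08 for AIMP2, edgeR adjusted p = 0.118). Both values were below 0 with library sizes taken as total counts (−0.10 and −0.01). With the length and GC trend removed AIMP1 was called higher (log2 0.28, edgeR adjusted p = 0.00476). Without shControl replicate 2, AIMP2 came to 0.26 (edgeR adjusted p = 0.0332).

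EEF1E1, also called AIMP3, rose. It had 22.4 and 23.6 CPM with shRNA1 and 21.2 and 24.9 CPM with shRNA2, against 16.4 and 17.8 CPM in shControl (log2 0.43 ± 0.10, edgeR adjusted p = 0.002). Its exons are shared on the same strand with the readthrough gene EEF1E1-BLOC1S5, so counts of these genes may have been divided between them.

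Among the mitochondrial enzymes LARS2, CARS2, EARS2 and YARS2 rose by over 1 log2 unit. LARS2, which charges mitochondrial tRNA with leucine, had 37.2 and 33.9 CPM with shRNA1 and 41.5 and 41.3 CPM with shRNA2, against 15.3 and 13.6 CPM in shControl (log2 1.42 ± 0.09, edgeR adjusted p = 1.6e-09). CARS2, the mitochondrial cysteinyl enzyme, had 52.0 and 53.7 CPM with shRNA1 and 50.9 and 49.0 CPM with shRNA2, against 21.1 and 19.3 CPM in shControl (log2 1.35 ± 0.07, edgeR adjusted p = 3.8e-10). In both genes the lowest knockdown library was above 2 times the higher control.

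EARS2, the mitochondrial glutamyl enzyme, had 54.9 and 52.4 CPM with shRNA1 and 51.3 and 57.1 CPM with shRNA2, against 25.4 and 23.6 CPM in shControl (log2 1.14 ± 0.07, edgeR adjusted p = 3.04e-09). YARS2, the mitochondrial tyrosyl enzyme, had 23.8 and 23.0 CPM with shRNA1 and 23.5 and 22.9 CPM with shRNA2, against 11.5 and 11.5 CPM in shControl (log2 1.02 ± 0.10, edgeR adjusted p = 3.04e-07). Smaller rises were called for TARS2 and AARS2, the threonyl and alanyl enzymes, at log2 0.60 ± 0.08 and 0.53 ± 0.08 (edgeR adjusted p = 8.12e-06 and 2.56e-05).

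The other mitochondrial rises were weaker. SARS2 had 19.6 to 25.1 CPM in the knockdown libraries and 16.2 and 17.9 CPM in shControl (log2 0.40 ± 0.11, edgeR adjusted p = 0.00529). FARS2, RARS2 and WARS2 had log2 fold changes of 0.33, 0.24 and 0.26 (edgeR adjusted p = 0.0174, 0.0265 and 0.0381). Without shControl replicate 1 none of the 4 was called, with log2 values of 0.33 for SARS2, 0.29 for FARS2, 0.14 for RARS2 and 0.20 for WARS2 (edgeR adjusted p = 0.0745, 0.131, 0.297 and 0.23). Without shRNA2 replicate 1, FARS2, RARS2 and WARS2 were not called (edgeR adjusted p = 0.07, 0.0836 and 0.092), and without shRNA1 replicate 2, RARS2 and WARS2 were not (0.0671 and 0.0791). Without shControl replicate 2 the call was lost for FARS2 (0.0677) and WARS2 (0.0836), and without shRNA2 replicate 2 for WARS2 (0.0598). SARS2 shares exon bases with AC011455.2 on the same strand and MRPS12 on the opposite strand.

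NARS2, the mitochondrial asparaginyl enzyme, was the mitochondrial gene that fell. It had 28.9 and 31.1 CPM with shRNA1 and 29.2 and 28.2 CPM with shRNA2, against 44.6 and 43.4 CPM in shControl (log2 −0.58 ± 0.07, edgeR adjusted p = 3.71e-06). IARS2, HARS2, PARS2 and MARS2 were not called, at 0.04 ± 0.04, 0.06 ± 0.08, −0.13 ± 0.17 and −0.20 ± 0.21 (edgeR adjusted p = 0.467, 0.557, 0.556 and 0.436). VARS2 varied most within groups, with 7.79 and 4.91 CPM with shRNA1, 2.08 and 0.860 CPM with shRNA2, and 3.11 and 7.95 CPM in shControl (log2 −0.85 ± 0.53, edgeR adjusted p = 0.238). Without shControl replicate 1 it came to −1.36 (edgeR adjusted p = 0.0189). VARS2 shares exon bases with GTF2H4 on the same strand, so its counts are uncertain.

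**Figure D3:**
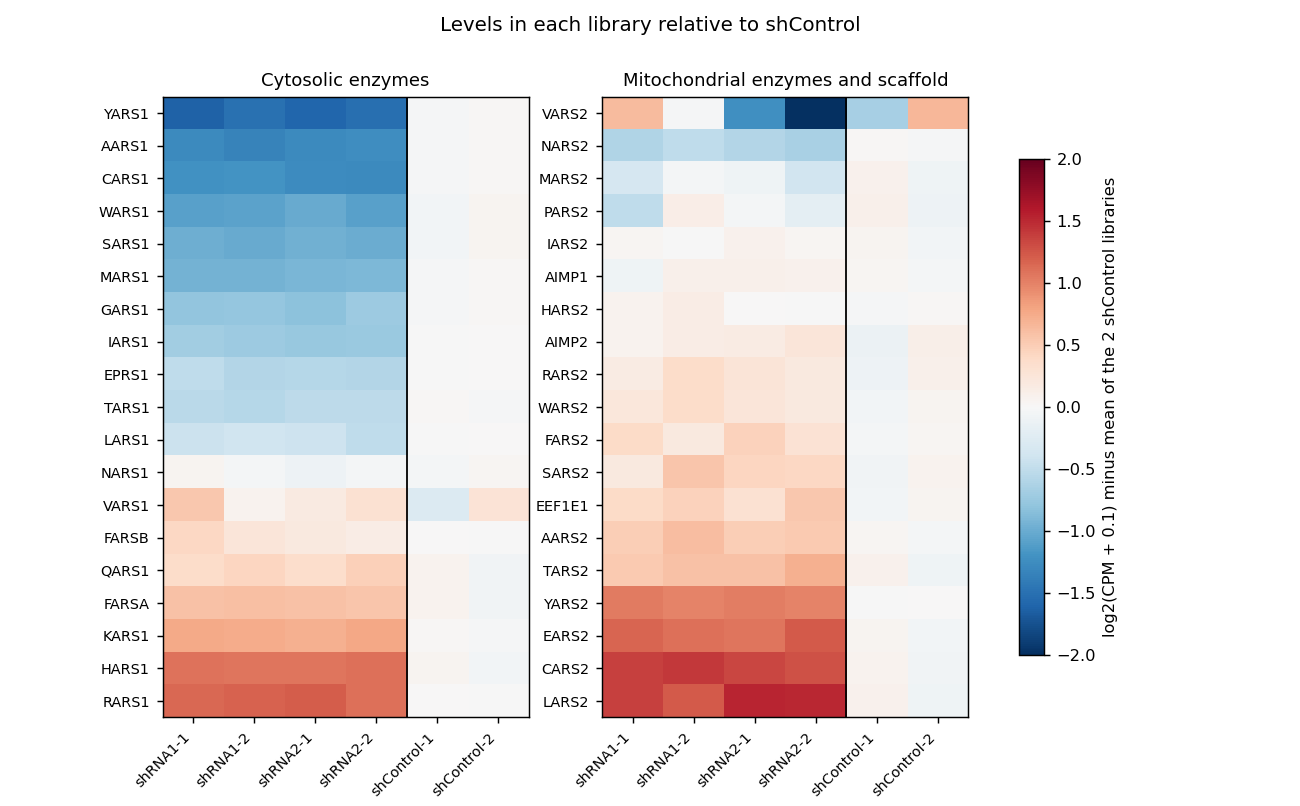
Heat map of log2(CPM + 0.1) of each gene (rows) in each library (columns), minus the mean of both shControl libraries, with blue for lower and red for higher. YARS1, AARS1, CARS1 and WARS1 are blue in all 4 knockdown libraries, LARS2, CARS2, EARS2, YARS2, RARS1 and HARS1 are red in all 4, and VARS2 varies within every group.

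For each amino acid served by separate genes, the cytosolic enzyme was set against its mitochondrial counterpart within each library, as log2 of the ratio of counts with 0.5 added. This ratio does not depend on library size. In 10 of 17 pairs all 4 knockdown libraries lay below both controls, in 4 they lay above and in 3 the groups overlapped, with a median difference of −0.76. For single genes, all 4 knockdown libraries lay below both controls in 34.2% of all genes tested and above in 32.7%. No such share was computed for ratios of other gene pairs. EPRS1 and FARS2 each enter more than once, so the pairs are not independent.

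The CARS1 to CARS2 ratio moved the most. It was −0.20 and −0.24 with shRNA1 and −0.21 and −0.18 with shRNA2, against 2.29 and 2.47 in shControl, so that the mitochondrial gene had the more counts in every knockdown library and the cytosolic gene in both controls. The YARS1 to YARS2 ratio averaged 2.48 in the knockdown libraries and 5.05 in shControl, a difference of −2.57. For LARS1 to LARS2 it averaged 1.65 in the knockdown libraries and 3.50 in shControl (difference −1.85), and for AARS1 to AARS2 3.11 in the knockdown libraries and 4.92 in shControl (difference −1.81). The leucine shift had its larger part in LARS2 and the alanine shift its larger part in AARS1.

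The pairs for serine, tryptophan, threonine, isoleucine and methionine, and EPRS1 to EARS2, also lay lower, by −1.70 (EPRS1 to EARS2) to −0.71 (MARS1 to MARS2). The ratio was higher in the knockdown libraries for HARS1 to HARS2 (1.71 against 0.68 in shControl), RARS1 to RARS2 (2.03 against 1.12 in shControl), NARS1 to NARS2 (2.24 against 1.68 in shControl) and FARSA to FARS2 (2.36 against 2.11 in shControl). In the histidine and arginine pairs the cytosolic gene rose by over 1 log2 unit, whereas in the asparagine pair the mitochondrial gene fell. VARS1 to VARS2, EPRS1 to PARS2 and FARSB to FARS2 overlapped between groups.

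**Figure D4:**
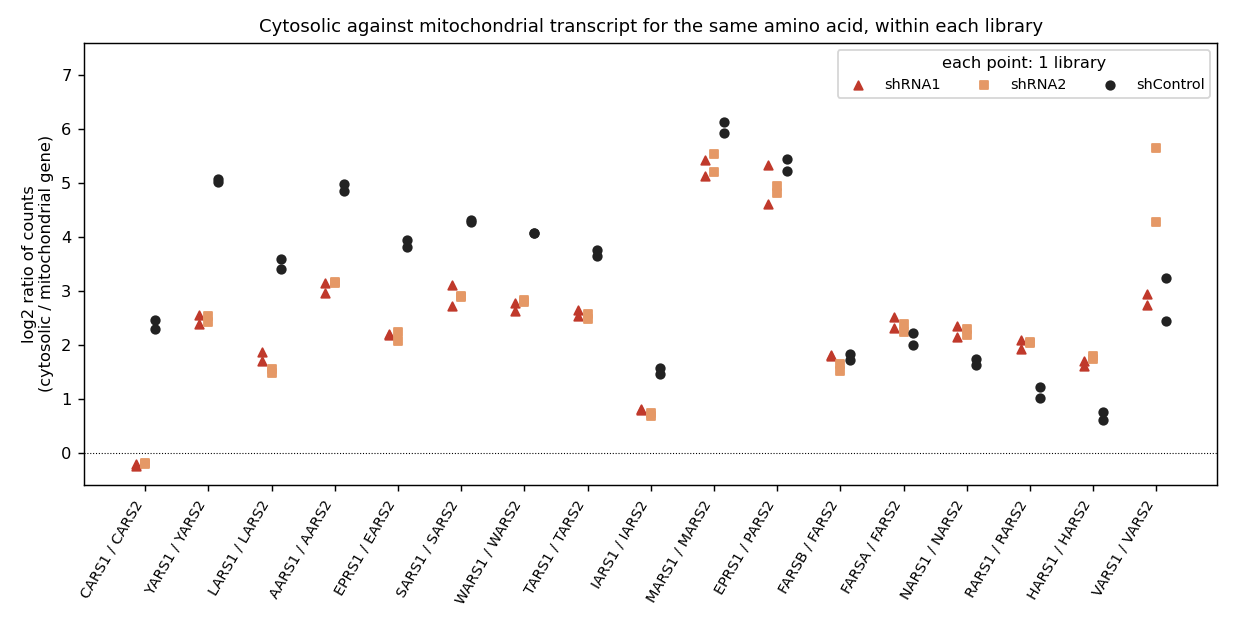
Log2 ratio of cytosolic to mitochondrial counts for 17 pairs of genes, 1 point per library, with shRNA1, shRNA2 and shControl marked by shape and colour. The knockdown libraries lie below both controls in 10 pairs, farthest for CARS1 to CARS2 and YARS1 to YARS2, and above them in 4.

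Both hairpins share the shControl libraries, and each gave much the same values. With shRNA1 16 of the 38 genes were called higher and 12 lower, where 52.4% of all genes tested were called, 26.8% higher and 25.6% lower. With shRNA2 14 were called higher and 12 lower, where 52.8% of all genes tested were called, 26.7% higher and 26.1% lower. YARS1 was at −1.55 with both hairpins. AARS1 was at −1.30 with shRNA1 and −1.26 with shRNA2, and LARS2 at 1.30 with shRNA1 and 1.53 with shRNA2. FARSB, RARS2 and WARS2 were called with shRNA1 (edgeR adjusted p = 0.00175, 0.0382 and 0.0421) but not with shRNA2 (0.0601, 0.074 and 0.121). FARS2 was called with shRNA2 (edgeR adjusted p = 0.0187) but not with shRNA1 (0.0713).

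Tested directly, shRNA1 against shRNA2, 0 of the 38 genes were called by edgeR or by DESeq2, with 2 and 1 at an unadjusted p under 0.05, and 0.0312% of all genes tested were called by edgeR. The widest difference was that of VARS2 at 2.04 ± 0.66 (edgeR adjusted p = 0.916), and for the other 37 genes it ran from −0.22 (LARS2) to 0.15 (FARSB).

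Per kilobase of annotated exon, the order of levels changed within the family. AARS1 had 68.6 CPM per kilobase with shRNA1 and 70.7 with shRNA2, against 169 in shControl, where it stood first of 38. GARS1 had 73.5 CPM per kilobase with shRNA1 and 74.1 with shRNA2, against 127 in shControl, and stood first with both hairpins. KARS1 stood at place 3 with both hairpins and at place 11 in shControl, with 64.7 and 64.4 CPM per kilobase in shRNA1 and shRNA2 and 38.4 in shControl. YARS1 stood at place 17 with shRNA1, 16 with shRNA2 and 7 in shControl. MARS2 and VARS2 were the lowest of the family in all 3 groups, at 1.46 CPM per kilobase or less. The exon length is that of all annotated isoforms merged.

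The charging pathway beyond the 38 genes was described with 4 lists. Of 32 genes of tRNA maturation and export that could be matched and tested (33 listed), 18 rose and 3 fell, with a median log2 fold change of 0.43, beside 28.6% higher and 28.9% lower of all genes tested. ELAC2, which removes the 3′ trailer of precursor tRNAs, had 120 and 120 CPM with shRNA1 and 129 and 126 CPM with shRNA2, against 71.7 and 76.1 CPM in shControl (log2 0.74 ± 0.05, edgeR adjusted p = 1.4e-09). RTCB, the ligase that joins the exons of spliced tRNAs, rose by 0.68 ± 0.04 (edgeR adjusted p = 1.49e-09). XPOT, the export receptor for tRNA, went against its list, with 93.9 and 100 CPM with shRNA1 and 95.5 and 91.5 CPM with shRNA2, against 271 and 260 CPM in shControl (log2 −1.48 ± 0.04, edgeR adjusted p = 1.46e-13). TRNT1, which adds the CCA end, was not called (log2 −0.17, edgeR adjusted p = 0.301).

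Of 64 tRNA modification genes 13 rose and 21 fell, with a median of −0.01, and with library sizes taken as total counts 11 rose and 30 fell. The 34 called of 64 are close to the share of all genes tested (57.5%). METTL1, the catalytic subunit for 7-methylguanosine, rose by 0.68 ± 0.16 (edgeR adjusted p = 0.00208), and the cytosine methyltransferase NSUN2 was not called (log2 0.04, edgeR adjusted p = 0.521). Of 12 partners of charging 3 rose and 2 fell, a smaller share than the 57.5% called among all genes tested. GATB, a subunit of the mitochondrial amidotransferase that makes glutaminyl-tRNA, rose by 0.44 ± 0.10 (edgeR adjusted p = 0.00193), and its partners GATC and QRSL1 were not called (edgeR adjusted p = 0.217 and 0.0851). MTFMT, the formyltransferase for mitochondrial initiator tRNA, PSTK, TARS3 and AARSD1 were not called either (edgeR adjusted p = 0.26, 0.126, 0.767 and 0.944). TARS3 has a synthetase symbol but is not among the 38 genes, so the counts by class leave it out.

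SEPSECS, which completes selenocysteinyl-tRNA, had 2.75 and 1.93 CPM with shRNA1 and 3.19 and 2.01 CPM with shRNA2, against 12 and 7.41 CPM in shControl (log2 −1.96 ± 0.25, edgeR adjusted p = 1.01e-05). DTD1, which clears D-amino acids from tRNA, fell by 0.55 log2 units (SE 0.06, edgeR adjusted p = 9.03e-07). These were the 2 partners of charging that fell. Besides GATB, the partners that rose were SEPHS1 and SEPHS2, by 0.77 ± 0.05 and 0.76 ± 0.07 (edgeR adjusted p = 1.66e-09 and 1.71e-07).

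Of 11 genes of uncharged tRNA sensing and ATF4 output 9 fell and 2 rose, with a median of −1.55, beside 28.9% lower and 28.6% higher of all genes tested. ATF4 had 199 and 222 CPM with shRNA1 and 201 and 214 CPM with shRNA2, against 405 and 414 CPM in shControl (log2 −0.97 ± 0.04, edgeR adjusted p = 2.04e-10). Its target DDIT3, a stress-induced transcription factor, had 7.85 and 9.35 CPM with shRNA1 and 9.97 and 8.46 CPM with shRNA2, against 30.3 and 32.2 CPM in shControl (log2 −1.81 ± 0.11). Its target ASNS, asparagine synthetase, had 16.7 and 19.8 CPM with shRNA1 and 18.2 and 20.3 CPM with shRNA2, against 209.7 and 209.4 CPM in shControl (log2 −3.48 ± 0.06). The ATF4 list was chosen with earlier results known, so its direction is no independent evidence. The genes that rose were the sensors: GCN1, the ribosome-bound activator of the kinase, had 299 and 310 CPM with shRNA1 and 301 and 326 CPM with shRNA2, against 151 and 151 CPM in shControl (log2 1.03 ± 0.04, edgeR adjusted p = 5.09e-12), and EIF2AK4 rose by 0.18 ± 0.04 (edgeR adjusted p = 0.0028). ATF4 protein and the charging state of tRNA were not measured, and the part of ATF4 in the synthetase changes was not tested.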

How the data were processed

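Per the labels, total RNA from 786-O cells (tumour and normal kidney tissue are also mentioned in the protocols) was made into paired-end Illumina libraries with an Abclonal kit. The authors deposited whole-number counts per gene (60649 genes). Per the submitters' processing notes, FastQC 0.11.9, Trim Galore 0.6.7, HISAT2 2.2.1, StringTie 2.2.1 and hg38 were used. No counting tool, annotation or strand setting is named in the sources used here.

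Counts of all 6 libraries were filtered by group (filterByExpr, 16039 genes), scaled by TMM and fitted with edgeR 4.0.16 (robust quasi-likelihood, 3 group means) in R 4.3.3. P-values were Benjamini-Hochberg adjusted over all genes tested and called under 0.05. SE is the log2 fold change over the root of F. The code was tested on simulated data. Positions, overlaps and exon lengths came from GENCODE 29 (58337 gene IDs, 96.2%), and promoters from RefSeq (GRCh38.p14).

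The 38 genes, the lists and the motif were chosen with earlier results of these data known. Every library's values are given for members past 1 log2 unit, scaffold genes, members called against most of their class and some others. Pathway genes were named from a fixed selection of their lists, except SEPHS1 and SEPHS2, which were added as the other partners of charging that rose. Alternatives were DESeq2 1.42.0, RLE factors, total counts, other low-count filters, a replicate block, glmTreat with a fold of 1.2, a fit of only the compared groups, library sizes without mitochondrial-genome genes, a length and GC trend removed (mgcv 1.9.3) and each library left out.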

Additional observations from a re-analysis of the deposited data

How the results depend on the processing

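Over all results, 1276 of 1399 recomputed values were labelled the same as in the main fit. For a fold change this meant the same direction and side of the threshold. For a count of called genes it meant only a count equal to, or within a set factor of, the main count. The cytosolic counts were 6 higher and 11 lower with each library left out, but without shControl replicate 2 VARS1 took the place of FARSB among the higher genes, and total counts gave 5 higher and 12 lower, with NARS1 lower (edgeR adjusted p = 0.00168). The mitochondrial count of higher genes came to 6 under total counts, against a fold of 1.2 and without shControl replicate 1 (6 to 10 over left-out libraries), and that of lower genes to 2 under total counts, with no filter on low counts and without shControl replicate 1 (1 to 2). The scaffold count of higher genes came to 2 with the length and GC trend removed (1 to 2 over left-out libraries). Between hairpins 1 gene, VARS2, was called higher with no filter. Under total counts 5 partners of charging, 6 genes of tRNA maturation and 30 of tRNA modification were lower, and 1 gene of tRNA sensing was higher. The longer motif left 1 cytosolic and 0 mitochondrial genes. Values near 0 changed sign: under total counts HARS2 to −0.10, IARS2 to −0.12, AIMP1 to −0.10 and AIMP2 to −0.007; with the length and GC trend removed NARS1 to 0.076; and with a library left out NARS1 ran from −0.072 to 0.013, IARS2 from −0.021 to 0.079 and PARS2 from −0.299 to 0.031. The cause was not tested. Same-numbered libraries did not deviate together (correlations −0.03 to 0.01), and with a replicate block 17 members were called higher and 12 lower, as without it. That block took the LINC02068 call to an edgeR adjusted p of 0.0506. The largest standard errors were those of VARS2 (0.53), VARS1 (0.23), MARS2 (0.21) and PARS2 (0.17), and all but VARS1 were under 10 CPM.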
